A study of Sus scrofa with 6 samples.

Results

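The genes described here are 10 genes of fatty acid synthesis and desaturation, namely SCD, FASN, ACACA, ACLY, ME1, ELOVL6, FADS1, FADS2, SREBF1 and THRSP. They were taken by symbol from the deposited table of transcripts, and each symbol led to 1 gene, so that the set held 10 of the 31908 Ensembl genes and 38 of the 83119 transcripts in the table. The tissue was the longissimus dorsi (LD), the long muscle of the back, of 6 Laiwu pigs, a Chinese breed known for fat within its muscle. The S-H group (LW63, LW70 and LW119) had a high intramuscular fat (IMF) content and the S-L group (LW82, LW88 and LW90) a low one. All 6 were castrated males, picked by the study from the upper and lower ends of IMF content in a larger set, with no treatment named in the labels, and their age is not given in the sources used here. Each pig gave 1 library that was depleted of ribosomal RNA and kept the strand of the RNA. The values are FPKM (fragments per kilobase of transcript and of mapped fragments in the library), summed over the transcripts of a gene.

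Fatty acids are built in the cytosol from acetyl-CoA. ATP citrate lyase (ACLY) cleaves citrate that has left the mitochondrion to give acetyl-CoA, malic enzyme (ME1) provides NADPH, acetyl-CoA carboxylase alpha (ACACA) makes malonyl-CoA, and fatty acid synthase (FASN) joins these units into palmitate. ELOVL6 lengthens palmitate to stearate, stearoyl-CoA desaturase (SCD) turns stearate into oleate, and FADS1 and FADS2 desaturate the polyunsaturated fatty acids. SREBF1 encodes a transcription factor that switches on most of these genes in response to insulin and sterols, and THRSP (Spot 14) is a small protein of lipogenic tissues that follows thyroid hormone and carbohydrate. In pigs adipose tissue is the main site of fatty acid synthesis, and a piece of LD muscle holds both muscle fibres and the fat cells that lie between them.

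The table gives no read counts, so the depth of a value is unknown and its precision rests on the spread between pigs. The summed FPKM of a library lay between 638536 in LW119 and 846661 in LW82. Log2 fold changes (log2FC, S-H minus S-L) were fitted with limma on log2(FPKM + 0.1), which understates the change of low genes. A gene passed when its p before adjustment was below 0.01 and its log2FC at least 1 in size. Of 12843 protein-coding genes tested, 175 passed, or 1.36%, with 150 higher and 25 lower in S-H. None had an adjusted p below 0.05 in limma, whose lowest adjusted p was 0.0779, while 1048 genes had an unadjusted p below 0.05. The values leaned towards S-H as a whole: 74.1% of all genes had a log2FC above 0 and the median was 0.21, which median-ratio size factors reduced to 0.01. With size factors 85 genes passed as higher and 56 as lower, so that 60.3% of the genes that passed were higher in place of 85.7%.

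All 10 genes were expressed in every pig and were tested, and 2 of them, SCD and THRSP, passed the thresholds, both higher in S-H. This is 2 of 10 genes, chosen with earlier results of these data known, beside 1.17% of all tested genes that passed as higher. The other 8 genes did not pass, and their groups overlapped. The log2FC was above 0 for all 10 genes (beside 74.1% of all genes) and for 9 with size factors (beside 50.9%). With size factors FADS2 was at -0.08. The median log2FC of the 10 genes was 0.67, beside 0.21 for all genes, and 0.46 beside 0.01 with size factors. The adjusted p from limma lay between 0.472 and 0.922, so none of the 10 genes held after adjustment. Before adjustment, 4 of the 10 (SCD, THRSP, ACACA and ELOVL6) had a p below 0.05, beside 8.16% of all genes.

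**Figure D1:**
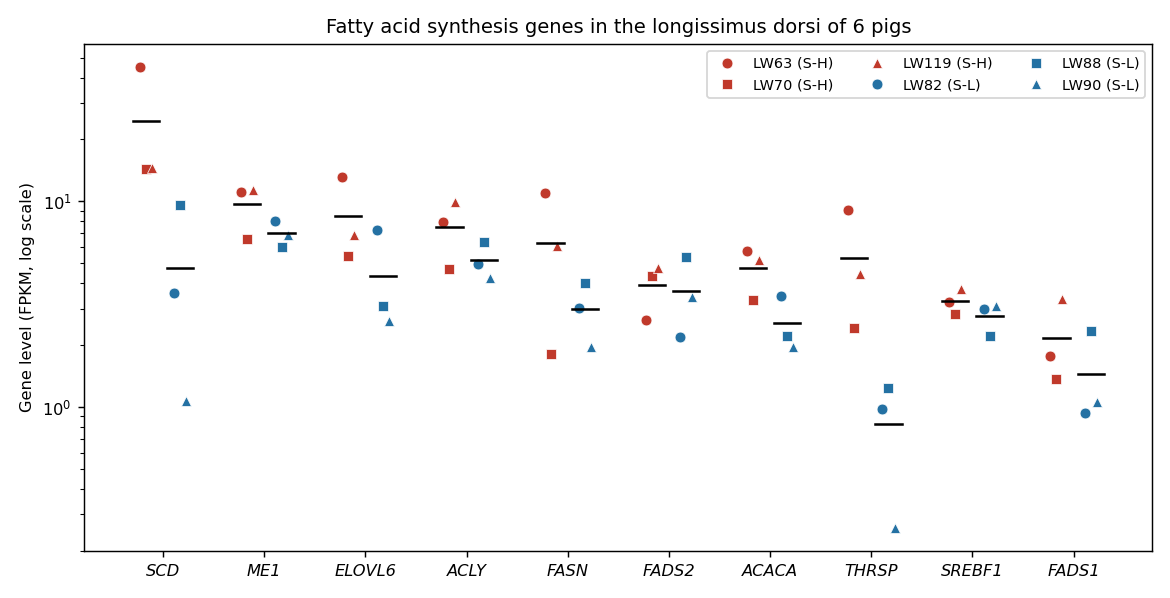
Level of the 10 genes (FPKM, log scale) in each of the 6 pigs, ordered by mean level, with S-H in red, S-L in blue and black bars at the group means. SCD and THRSP are the genes whose S-H pigs all lie above the S-L pigs, and LW63 is the highest pig for both.

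Among the suppliers of acetyl-CoA and NADPH, neither member passed. ACLY (chromosome 12, 20796749 to 20841298, Sus scrofa 11.1) was at 7.94, 4.69 and 9.94 FPKM in LW63, LW70 and LW119, and at 4.96, 6.32 and 4.24 FPKM in LW82, LW88 and LW90. LW70 lay below LW82 and LW88, and the log2FC was 0.49 ± 0.32 (SE, limma, adjusted p = 0.671). ME1 (chromosome 1, 82794964 to 82991104) was at 11.1, 6.59 and 11.4 FPKM in the same order of S-H pigs and at 8.06, 5.99 and 6.89 FPKM in the S-L pigs. LW70 again lay within the S-L range while the other S-H pigs lay above it, with a log2FC of 0.43 ± 0.28 (SE, limma, adjusted p = 0.668).

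The enzymes that build palmitate were higher in LW63 and LW119 than in every S-L pig, while LW70 lay within the S-L range for ACACA and below it for FASN. ACACA (chromosome 12, 38581449 to 38875134), which catalyses the committed step, was at 5.71, 3.30 and 5.19 FPKM in S-H and at 3.47, 2.21 and 1.97 FPKM in S-L. The groups overlapped only because LW82 lay above LW70, and the log2FC of 0.87 ± 0.32 (SE, limma, adjusted p = 0.577) missed both thresholds. It met them without LW70 (log2FC 1.11) and without LW82 (log2FC 1.11). FASN (chromosome 12, 920507 to 937559) was at 11.0, 1.81 and 6.07 FPKM in S-H and at 3.04, 3.998 and 1.96 FPKM in S-L. LW70 was the lowest of the 6 pigs for FASN and LW63 the highest, so that the S-H mean of 6.28 FPKM carried an SD of 4.59 (n = 3), against 3.00 ± 1.02 in S-L (SD, n = 3). The log2FC was 0.77 ± 0.56 (SE, limma, adjusted p = 0.701), and FASN passed when LW70 was left out (log2FC 1.47). ACLY, ACACA, FASN and SREBF1 all lie on chromosome 12, but far apart on it.

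ELOVL6 (chromosome 8, 111750960 to 112191274), the elongase that follows FASN, was at 13.1, 5.45 and 6.84 FPKM in S-H and at 7.22, 3.10 and 2.61 FPKM in S-L. LW82 lay above LW70 and LW119, and the log2FC of 1.002 ± 0.43 (SE, limma, adjusted p = 0.607) did not pass. The gene sum holds 11 transcripts that the authors assembled besides 2 of Ensembl, and the region also holds ENPEP and the pseudogene LOC100516279, which overlap it. The Ensembl transcript ELOVL6-201 alone was at 10.3, 2.48 and 3.48 FPKM in S-H and at 1.76, 1.49 and 0.580 FPKM in S-L, with no overlap between the groups. Its log2FC was 1.86 ± 0.64 (SE, limma over all transcripts, adjusted p = 0.848). The assembled transcripts summed to 2.83, 2.97 and 3.36 FPKM in S-H and to 5.45, 1.61 and 2.03 FPKM in S-L, and it was this sum that put LW82 above LW70 and LW119. Summed over Ensembl transcripts only, a setting chosen after seeing the data, ELOVL6 passed with a log2FC of 1.86 ± 0.56 (SE). It also passed without LW82 (log2FC 1.44).

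SCD (chromosome 14, 111461560 to 111478031) was the highest of the 10 genes on average over the 6 pigs, and its log2FC was close to that of THRSP, each being the larger of the pair under some settings. It was at 45.0, 14.4 and 14.6 FPKM in LW63, LW70 and LW119, and at 3.59, 9.59 and 1.07 FPKM in LW82, LW88 and LW90. Every S-H pig lay above every S-L pig, as for 13.1% of all genes, and LW63 stood far above the other S-H pigs. The log2FC was 2.62 ± 0.69 (SE, limma, adjusted p = 0.533), with a 95% interval of 1.07 to 4.16, and it ranked 11 among all tested genes. SCD missed the p threshold without LW63 (log2FC 2.07), without LW82 (2.66), without LW90 (1.83) and with a robust variance, and it stayed positive in all of the 19 alternatives run for each gene.

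The desaturases of polyunsaturated fatty acids did not pass. FADS1 and FADS2 are neighbours on chromosome 2, with FADS2 at 9629422 to 9666676 and FADS1 at 9735293 to 9749671, 68616 bases further on. FADS1, the delta-5 desaturase, was at 1.77, 1.36 and 3.35 FPKM in S-H and at 0.930, 2.33 and 1.05 FPKM in S-L (log2FC 0.57 ± 0.43, SE, limma, adjusted p = 0.707). FADS2, the delta-6 desaturase, was at 2.65, 4.33 and 4.74 FPKM in S-H and at 2.19, 5.39 and 3.43 FPKM in S-L. It was the member with the smallest difference (log2FC 0.14 ± 0.37, SE, limma, adjusted p = 0.922), with a 95% interval of -0.68 to 0.96, and the pig with the highest FADS2 was LW88 of the S-L group.

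Of the 2 regulators in the set, THRSP passed and SREBF1 did not. THRSP (chromosome 9, 12479909 to 12488557) was at 9.07, 2.43 and 4.45 FPKM in S-H and at 0.978, 1.24 and 0.258 FPKM in S-L. The groups did not overlap, and the S-H mean of 5.32 ± 3.40 FPKM (SD, n = 3) was 6.45 times the S-L mean of 0.824 ± 0.507 FPKM (SD, n = 3). The log2FC was 2.56 ± 0.57 (SE, limma, adjusted p = 0.472). THRSP passed in all 19 alternatives that kept the thresholds, each pig left out in turn included, with the log2FC between 1.98 and 3.01 when a pig was left out. NDUFC2, at 20.0 FPKM on average, overlaps the end of THRSP, and its effect on the THRSP value was not tested. SREBF1 (chromosome 12, 60733907 to 60751265) was at 3.24, 2.82 and 3.76 FPKM in S-H and at 2.98, 2.21 and 3.09 FPKM in S-L. Its log2FC was 0.24 ± 0.27 (SE, limma, adjusted p = 0.797), with a 95% interval of -0.36 to 0.84, and it had the narrowest spread in FPKM of the 10 genes within each group, with an SD of 0.472 FPKM in S-H and 0.483 FPKM in S-L (n = 3).

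**Figure D2:**
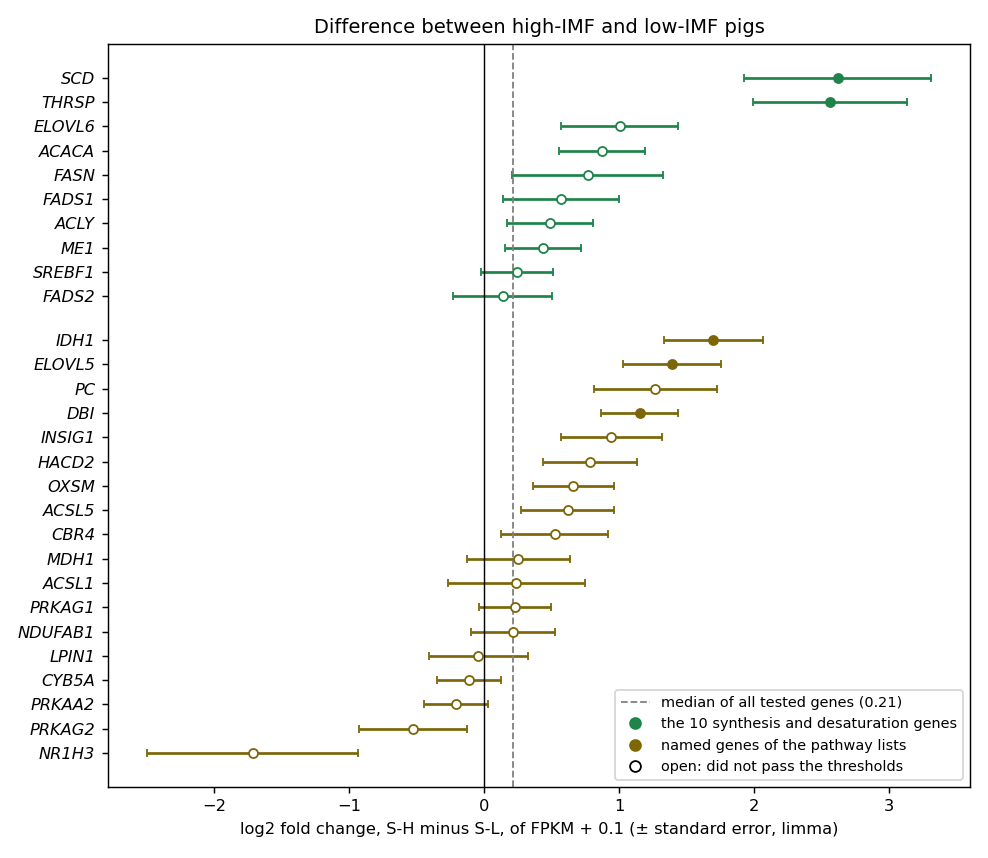
Log2 fold change of FPKM + 0.1 (S-H minus S-L, limma, bars are ± 1 SE) of the 10 genes in green and of the named pathway genes in brown, with the median of all tested genes (0.21) as a dashed line. Filled points passed the thresholds, which are SCD, THRSP, IDH1, ELOVL5 and DBI.

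Summed over the 10 genes, the level was 110.6, 47.2 and 70.3 FPKM in the S-H pigs and 37.4, 42.4 and 26.6 FPKM in the S-L pigs. These sums did not overlap, and SCD made up 40.7%, 30.5% and 20.8% of them in S-H and 9.58%, 22.6% and 4.02% in S-L. Without SCD the sums were 65.6, 32.8 and 55.7 FPKM in S-H and 33.8, 32.8 and 25.5 FPKM in S-L, so that LW70 fell among the S-L pigs. LW63 was the highest pig for 5 of the 10 genes and LW119 for 4, beside 23.7% and 30.7% of all genes, and LW90 was the lowest for 5, beside 40.8% of all genes. Over the 6 pigs THRSP was the member whose log2 level ran closest to SCD (Pearson r = 0.965, a description over 6 libraries of both IMF groups).

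FPKM is per length, so the mean levels of the genes over the 6 pigs can be ordered. They ran from SCD (14.7 FPKM) over ME1 (8.33), ELOVL6 (6.40), ACLY (6.35), FASN (4.64), FADS2 (3.79), ACACA (3.64), THRSP (3.07) and SREBF1 (3.02) to FADS1 (1.80 FPKM). This order pools both groups and did not hold in S-L alone, where ME1 (6.98 FPKM) and ACLY (5.17) had higher means than SCD (4.75), and THRSP (0.824) had a lower one than FADS1 (1.44). It did not hold in S-H alone either, where THRSP (5.32 FPKM) had a higher mean than ACACA (4.73), and ACACA a higher one than FADS2 (3.91). None of the 9 neighbouring pairs kept its order in all 6 pigs, and none passed the test of its difference (exact two-sided sign-flip test over 6 pigs, lowest p adjusted over the pairs 0.281, where 0.03125 is the smallest unadjusted p that the design allows). The nearest to it were ACLY over FASN and SREBF1 over FADS1, each in 5 of 6 pigs (exact sign-flip p = 0.0625). SCD was above ME1 in 4 of 6 pigs, and THRSP was above SREBF1 in 2 of 6. The mean log2 difference was -0.12 for ELOVL6 over ACLY and -0.66 for THRSP over SREBF1, the reverse of the order of means. The ELOVL6 mean includes its assembled transcripts. ELOVL6-201 alone had a mean of 3.35 FPKM, which is below the means of ACLY, FASN, FADS2 and ACACA.

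Several gene values were split between transcripts, and the split differed from pig to pig. The 38 transcripts were 25 from Ensembl and 13 assembled by the authors. Of these, 28 were tested and 1 passed, THRSP-202, beside 1.25% of all transcripts, while 3 were at 0 in every pig. THRSP-202 carried the whole THRSP value in every pig, and its transcript call was lost without LW63, LW119, LW82 or LW90 (log2FC between 1.98 and 2.77 in these fits). SREBF1 and ACLY have 1 transcript each. ACACA-201, the main ACACA transcript, was at 5.51, 2.95 and 4.35 FPKM in S-H and at 2.70, 1.91 and 1.81 FPKM in S-L, without overlap (log2FC 0.94 ± 0.35, SE, limma, adjusted p = 0.848), beside 8% of all transcripts with every S-H pig above every S-L pig.

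SCD was read as 3 Ensembl transcripts. SCD-201, which starts 248 bases before the start coordinate of the others, was at 15.3, 10.3 and 6.92 FPKM in S-H and at 0.0418, 9.56 and 1.07 FPKM in S-L. SCD-202 was at 16.7, 4.10 and 3.41 FPKM in S-H and at 1.90, 0.0256 and 0 FPKM in S-L. SCD-203 was at 13.1, 0.0018 and 4.27 FPKM in S-H and at 0 in all S-L pigs. LW88 and LW90 thus had nearly all SCD as SCD-201 (99.7% and 100%), LW63 had it in nearly equal parts (34.0%, 37.0% and 29.0%), and LW82 had 52.9% as SCD-202 and most of the rest as an assembled transcript. None of the 3 transcripts passed, with log2FC of 3.15 ± 1.41 for SCD-201, 4.42 ± 1.24 for SCD-202 and 4.17 ± 1.69 for SCD-203 (SE, limma, adjusted p = 0.848, 0.784 and 0.848). SCD-202 lay just outside the p threshold, and it passed with a pseudocount of 1 (log2FC 2.35), with TPM (4.75), with the values as deposited (4.42) and without LW82 (5.81). SCD-203 passed without LW70 (6.24) and SCD-201 without LW88 (4.68). SCD taken as its transcript of highest mean, SCD-201, did not pass either, where the sum over transcripts did.

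ME1 and FADS2 were also split differently between transcripts from pig to pig, and the shares of ME1-201, ME1-202, FADS2-201 and FADS2-202 overlapped between the IMF groups. ME1-201 held 99.4%, 27.4% and 0% of ME1 in LW63, LW70 and LW119, and 98.7%, 81.6% and 98.7% in LW82, LW88 and LW90, with ME1-202 as the remainder. LW119, a pig with 11.4 FPKM of ME1, had all of it as ME1-202, and LW63, at 11.1 FPKM, had nearly none. Taken as its transcript of highest mean, ME1-201, ME1 had a log2FC of -2.35 in place of 0.43, and ME1-202 passed as higher when LW63 was left out (log2FC 4.38). FADS2-201 held 45.2%, 46.7% and 60.3% of FADS2 in LW63, LW82 and LW90 and was at 0 in LW70, LW119 and LW88, where FADS2-202 held 44.9%, 37.6% and 48.1%. The pigs of both groups fell on both sides of this split. Of 25 transcript shares compared over 7 genes, 3 did not overlap (beside 9.7% of the shares of all tested genes) between the groups, for SCD-203, FADS2-204 and ELOVL6-OT1 (exact permutation over pigs, two-sided, with p at its minimum of 0.10 for 3 against 3 and an adjusted p of 0.789). The way that fragments are assigned among overlapping transcripts can move such shares, and this was not tested.

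**Figure D3:**
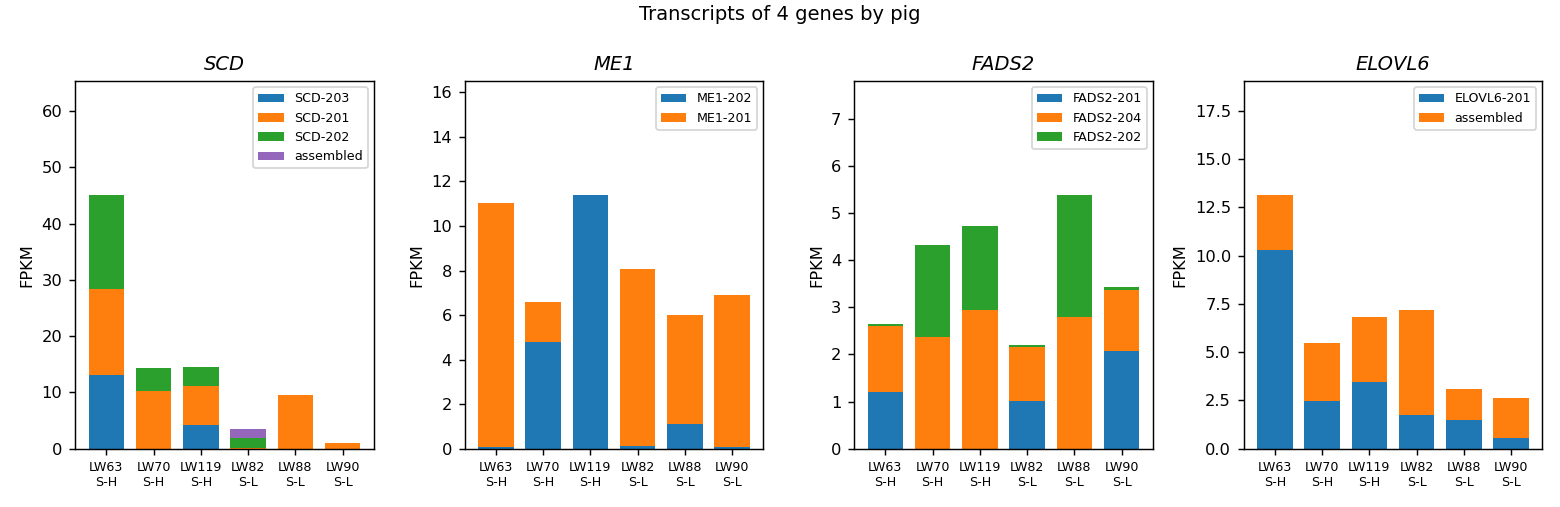
FPKM of the transcripts of SCD, ME1, FADS2 and ELOVL6 stacked in each pig, with the transcripts assembled by the authors drawn as 1 colour. LW119 holds its ME1 as ME1-202 (11.4 FPKM) and LW63 as ME1-201 (11.0 FPKM), while SCD-203 is at 0 in the 3 S-L pigs.

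Adipocyte markers moved with the same groups. Of 10 markers, 5 passed as higher in S-H, beside 1.17% of all genes. These were ADIPOQ, FABP4, PLIN1, LEP and CIDEC. The marker list was chosen with earlier results of these data known, so its counts are a description. The groups did not overlap for 8 of the 10, beside 13.1% of all genes with every S-H pig above every S-L pig. None of the 10 was at 0 in any pig, their summed level was 557 to 1536 FPKM in S-H and 389 to 485 FPKM in S-L, and their median log2FC was 1.49. The named adipocyte genes ran from ADIPOQ, an adipokine, with a log2FC of 1.90 ± 0.52 (SE, limma, adjusted p = 0.538) and PLIN1, a lipid droplet protein, with 2.04 ± 0.47 (SE, limma, adjusted p = 0.472) down to CFD, or adipsin, with 0.26 ± 0.30 (SE, limma, adjusted p = 0.798). PPARG and CEBPA, the regulators of adipocyte formation, had log2FC of 1.11 ± 0.41 and 1.66 ± 0.53 (SE, limma, adjusted p = 0.577 and 0.577), and PLIN4 and LIPE had 0.56 ± 0.41 and 0.78 ± 0.31 (SE, limma, adjusted p = 0.701 and 0.601). FABP4, LEP and CIDEC had 1.33 ± 0.35, 1.79 ± 0.43 and 2.02 ± 0.49 (SE, limma, adjusted p = 0.533, 0.516 and 0.522). In bulk tissue, more fat cells and more RNA of a gene per fat cell cannot be told apart, so the differences of SCD and THRSP cannot be separated from the amount of fat tissue in the sample. The 7 muscle fibre markers with a row summed to 16182 to 22377 FPKM in S-H and to 15337 to 30187 FPKM in S-L, so that fibre transcripts were abundant in every pig. The fast myosins MYH1, MYH2 and MYH4 of the same list had no row under the names used and were not analysed here. The markers of muscle fibres, fibroblasts, endothelial cells, macrophages and Schwann cells gave no gene that passed (0 of 7, 0 of 5, 0 of 5, 0 of 5 and 0 of 4 tested), which are short lists beside the 1.36% of all genes that passed. The median log2FC of the muscle fibre markers was -0.48, or -0.70 with size factors, and that of the Schwann cell markers was -0.29. The log2FC was above 0 for 3 of 7 and 0 of 4 of them, beside 74.1% of all genes. The other medians were 0.43 for fibroblast, 0.06 for endothelial and 0.29 for macrophage markers, beside 0.21 for all genes. The part of these cells in the differences of the 10 genes was not tested.

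Levels were also set against the mean log2 level of the 10 adipocyte markers within each pig. The same marker mean is subtracted from every gene, so each difference is the gene's log2FC less that of the marker mean. This is a description and does not separate the amount of fat tissue from the level per fat cell. On this scale SCD was at -0.49, -1.06 and -0.64 in S-H and at -2.23, -0.65 and -3.11 in S-L, a difference of 1.27 in which LW88 lay among the S-H pigs. THRSP was at -2.79, -3.58 and -2.33 in S-H and at -4.002, -3.51 and -4.82 in S-L, a difference of 1.22 in which LW88 lay above LW70 (exact two-sided permutation test, p = 0.2 for both). The other 8 genes were lower in S-H relative to the markers, by log2 differences from -0.34 for ELOVL6 to -1.21 for FADS2. All 10 genes overlapped between the groups on this scale. Of 16 ratios compared within a pig, 2 did not overlap, SCD to FASN (2.03, 2.93 and 1.25 in S-H against 0.23, 1.24 and -0.82 in S-L, as log2 ratios) and THRSP to its relative MID1IP1 (-1.20, -3.63 and -3.02 against -3.75, -5.01 and -6.74). Both had an exact permutation p of 0.10, the smallest that this design can give, and an adjusted p of 0.492, so neither of these ratios was called different. With 3 against 3 pigs, a share of 0.10 of ratios would not overlap even if the groups did not differ.

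**Figure D4:**
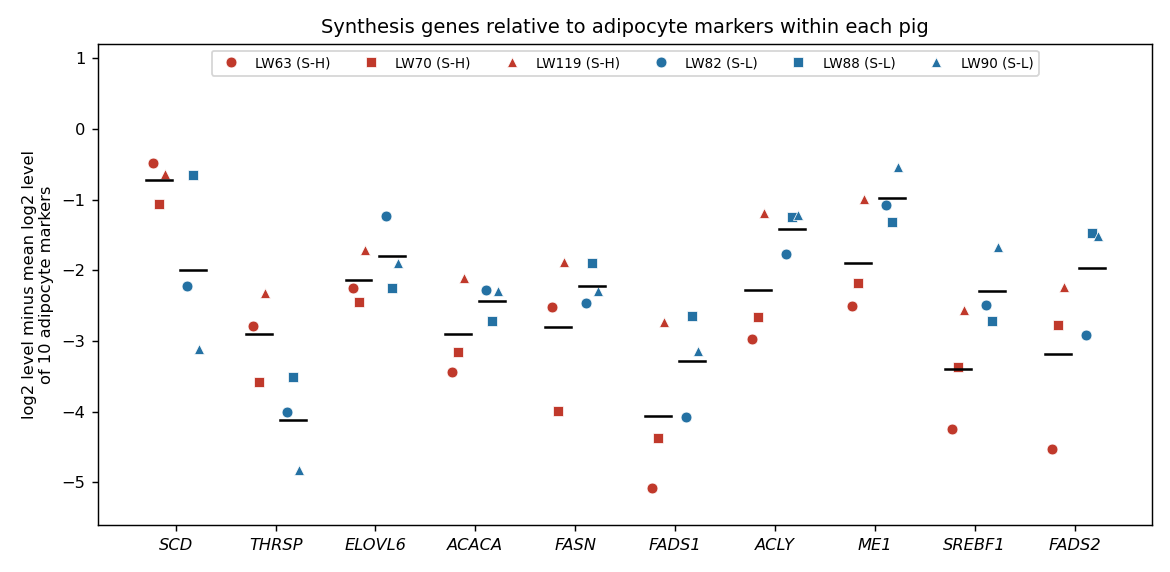
Log2 level of each of the 10 genes minus the mean log2 level of 10 adipocyte markers in the same pig, with S-H in red, S-L in blue and black bars at the group means. All 10 genes overlap between the groups, with S-H higher for SCD and THRSP and lower for the other 8.

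The genes around the 10 were taken from 6 lists of the pathway, written from general knowledge but with earlier results of these data known. The lists hold 72 genes, of which 68 were in the table and 64 were tested. Of these, 3 passed as higher in S-H and 0 as lower (beside 1.17% and 0.195% of all genes, with none at an adjusted p below 0.05), 11 had an unadjusted p below 0.05 in limma (beside 8.16%), and the median log2FC was 0.31 beside 0.21 for all genes. ACACB, MBTPS2, ELOVL7 and MECR had no row under the names used and were not analysed here.

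The supply of acetyl-CoA and NADPH was the list with the largest median, 0.58, and all 12 of its genes had a log2FC above 0 (beside 74.1% of all genes), also with size factors (beside 50.9%). IDH1, a cytosolic source of NADPH, was at 44.4, 26.7 and 22.4 FPKM in S-H and at 11.1, 12.6 and 5.45 FPKM in S-L, without overlap. It was the gene of this list that passed, with a log2FC of 1.70 ± 0.37 (SE, limma, adjusted p = 0.472). Taken as its transcript of highest mean, IDH1 missed the p threshold (log2FC 4.48 ± 1.34, SE). Pyruvate carboxylase (PC), which replaces the oxaloacetate used for citrate, was at 56.9, 18.3 and 16.9 FPKM in S-H and at 14.7, 11.5 and 7.34 FPKM in S-L. It did not overlap either, but its log2FC of 1.27 ± 0.46 (SE, limma, adjusted p = 0.577) missed the p threshold, which it met without LW119 (log2FC 1.58). MDH1, the most abundant gene of the list, had a log2FC of 0.25 ± 0.38 (SE, limma, adjusted p = 0.861).

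Among other elongases and desaturases 1 of 14 tested genes passed (beside 1.36% of all genes), and the median log2FC was 0.20. ELOVL5, the elongase of polyunsaturated fatty acids, was at 31.5, 12.9 and 18.8 FPKM in S-H and at 8.90, 9.27 and 5.02 FPKM in S-L (log2FC 1.39 ± 0.37, SE, limma, adjusted p = 0.533). HACD2, a dehydratase of the same cycle, had 0.78 ± 0.35 (SE, limma, adjusted p = 0.607), and CYB5A, the electron donor of the desaturases, had -0.11 ± 0.24 (SE, limma, adjusted p = 0.905). The related HACD1 went the other way, at 3.56, 3.43 and 3.21 FPKM in S-H and at 4.68, 5.24 and 5.63 FPKM in S-L. Its log2FC was -0.59 ± 0.24 (SE, limma, adjusted p = 0.604). It was the 1 of 64 tested pathway genes with every S-L pig above every S-H pig, while 13 had the reverse (beside 13.1% of all genes). Among fatty acyl-CoA synthetases and the acyl-CoA binding protein 1 of 6 tested genes passed (beside 1.36% of all genes). This was DBI, the acyl-CoA binding protein, at 21.7, 20.0 and 13.4 FPKM in S-H and at 8.18, 10.3 and 6.17 FPKM in S-L (log2FC 1.15 ± 0.29, SE, limma, adjusted p = 0.533). ELOVL5 missed the p threshold without LW63 (log2FC 1.05), without LW90 (1.11) and as its transcript of highest mean (1.42). DBI missed a threshold without LW63 (1.02) and LW90 (0.96), with size factors (0.93) and with quantile normalization (0.98). ACSL1, the most abundant synthetase, ranged from 68.1 to 285 FPKM within S-H and had a log2FC of 0.24 ± 0.51 (SE, limma, adjusted p = 0.906), and ACSL5 had 0.62 ± 0.35 (SE, limma, adjusted p = 0.639).

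None of 15 regulators of the pathway passed (beside 1.36% of all genes), with 13 above 0 (beside 74.1%) and a median log2FC of 0.37. INSIG1, which holds the SREBP precursors in the endoplasmic reticulum, had a log2FC of 0.94 ± 0.38 (SE, limma, adjusted p = 0.596) and passed without LW82 (log2FC 1.24). NR1H3, the receptor LXR alpha, was at 6.62, 0.515 and 0.580 FPKM in S-H and at 6.92, 3.71 and 3.62 FPKM in S-L. LW63 lay within the S-L range while LW70 and LW119 lay far below, and NR1H3 passed as lower without LW63 (log2FC -2.84). With all pigs it had a log2FC of -1.72 ± 0.78 (SE, limma, adjusted p = 0.608). LPIN1, the most abundant of these genes, had -0.04 ± 0.37 (SE, limma, adjusted p = 0.977). None of 11 genes that act on acetyl-CoA carboxylase passed (median 0.01), and the AMPK subunits PRKAA2, PRKAG1 and PRKAG2 had log2FC of -0.21 ± 0.24, 0.23 ± 0.27 and -0.53 ± 0.40 (SE, limma, adjusted p = 0.798, 0.807 and 0.709). None of 6 genes of mitochondrial fatty acid synthesis, a separate pathway that serves lipoic acid, passed (median 0.46), with OXSM at 0.66 ± 0.30, CBR4 at 0.52 ± 0.40 and NDUFAB1 at 0.21 ± 0.31 (SE, limma, adjusted p = 0.608, 0.709 and 0.854).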

How the data were processed

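LD muscle of 6 pigs was sequenced from strand-specific libraries depleted of ribosomal RNA, with a single library from each animal. The authors cleaned the reads, mapped them to Sus scrofa 11.1 (Hisat2) and assembled and quantified transcripts (StringTie). The deposited values are FPKM per transcript, apart from those of 21104 Ensembl transcripts lacking a symbol. Judged from the values, these appear to be TPM, and they were converted to FPKM by 1 factor per pig computed from the values. FPKM was summed per gene. RefSeq gave the type of 14837 genes through the symbol and of 3871 through position (50% reciprocal overlap), and 17223 genes were protein-coding. Features averaging at least 0.1 FPKM were fitted with limma (version 3.58.1, R 4.3.3) using a trended variance on log2(FPKM + 0.1), and p values were adjusted over all features by the Benjamini-Hochberg method. The thresholds were those of the study's methods, whose own test needs counts. Shares and ratios were compared by exact permutation tests over pigs (Python 3.11.15, numpy 2.4.6, pandas 2.3.3). The limma step was run on simulated independent values, with changes planted only in features whose log2 SD within groups was below 1. More variable features were not covered.

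The named genes were the 10 genes, each pathway gene that passed, per pathway list the 2 with the largest absolute log2FC and the 1 with the highest mean, the adipocyte markers, and the 5 genes closest to SCD over the 6 pigs. HACD1 was named outside this rule, after seeing the data, and is not drawn in the figures. The genes and lists were chosen with earlier results of these data known. The alternatives were another pseudocount, minimum, scaling, variance model or gene value, the values as deposited, all Ensembl genes, adjusted p values and each pig left out in turn. The sum over Ensembl transcripts only was chosen after seeing the data, and it is counted among the 19 alternatives per gene.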

Additional observations from a re-analysis of the deposited data

How the results depend on the processing

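No paired analysis was possible, because each library came from a different pig and the labels link no S-H pig to an S-L pig. The number of genes that passed was 175, 78 with a pseudocount of 1, 0 by adjusted p, and 88 (without LW90) to 263 (without LW82) when a pig was left out. Of the 10 genes 2 passed, 1 with a robust variance or the transcript of highest mean (THRSP in both), 0 by adjusted p, and 1 to 4 when a pig was left out. Of the pathway genes 3 passed, 1 with the transcript of highest mean, 0 by adjusted p, and 1 to 4 when a pig was left out. Of the transcripts 1 passed, 2 with a pseudocount of 1, TPM or the values as deposited, 0 without a variance trend, and 0 to 2 when a pig was left out. Shares that did not overlap numbered 3, and 3 to 13 when a pig was left out (13 without LW88). Ratios that did not overlap numbered 2, 1 with a pseudocount of 1, and 2 to 9 when a pig was left out (9 without LW119). Neighbouring pairs that kept their order in all pigs numbered 0, 2 with the transcript of highest mean, and 0 to 3 when a pig was left out (3 without LW63). For the same shares, ratios or pairs, leaving out a pig cannot create an overlap or break a kept order. With fewer pigs such counts can only stay or rise, so their rise is no sign of a group difference. NR1H3 passed without LW63 (log2FC -2.84). The cause of the other changes was not tested.

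Signs turned for some differences that had not passed. With the transcript of highest mean the log2FC of ME1 was -2.35, NR1H3 0.24 and ACSL1 -0.45, and the ratio differences were FADS2 to FADS1 0.10, ACLY to ACSS2 -0.37 and ELOVL6 to adipocyte markers 0.53. With size factors FADS2 was at -0.078 and NDUFAB1 at -0.0054, with quantile normalization FADS2 was at -0.060, with TPM LPIN1 was at 0.090 and CYB5A at 0.021, and with Ensembl transcripts only LPIN1 was at 0.058. When a pig was left out the log2FC lay between -0.18 and 0.45 for FADS2, -0.39 and 0.24 for LPIN1, -0.12 and 0.91 for ACSL1, -0.10 and 0.52 for NDUFAB1 and -0.11 and 1.499 for FASN-202, and the ratio difference between -0.56 and 0.69 for ACLY to ACSS2, -0.46 and 0.20 for SREBF1 to SREBF2 and -1.03 and 0.016 for FASN to adipocyte markers.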

Other observations

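The 5 genes with a symbol whose log2 level ran closest to that of SCD over the 6 pigs, among 12843 tested genes, were EHMT1 (Pearson r = 0.995), GALNS (0.994), TBCB (0.993), TARBP2 (0.993) and CYTH1 (0.992). These are descriptions over 6 libraries of both IMF groups, and among so many genes some run close to any pattern of 6 values. Their differences between the groups were much smaller than that of SCD, with a log2FC of 0.27 ± 0.23 for EHMT1, 0.71 ± 0.30 for GALNS and 0.42 ± 0.23 for TBCB (SE, limma, adjusted p = 0.736, 0.605 and 0.629), and none of the 5 passed.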
